A study of Mus musculus with 8 samples.

Results

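Valproic acid treatment after the loss of talin 1 from podocytes was compared with control on 5 of the 8 arrays of the series. These were the 3 arrays of treated mice, called Tln1 VPA 1 to 3 here after their titles, and the 2 arrays titled control. Each array held total RNA of isolated kidney glomeruli from mice 13 weeks old. All groups, the controls included, had 3 weeks of doxycycline that began at 8 weeks of age. Mice of the line Tln1 Pod-rtTA TetO-Cre then received valproic acid for 2 weeks (Tln1 VPA, 3 arrays) or vehicle for 2 weeks (Tln1 vehicle, 3 arrays). Per its name, the line carries a Cre recombinase that doxycycline switches on in podocytes and that acts on Tln1. Of the control animals the labels give the doxycycline and the word control, and neither their alleles nor whether they received vehicle. The labels do not say whether each array is a separate animal, so p-values measure the spread between arrays alone, and that spread may be technical.

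Podocytes are the epithelial cells whose interlocking foot processes cover the glomerular capillaries and hold back plasma protein. Talin 1 couples integrins, which bind the basement membrane, to the actin cytoskeleton of the foot process, and podocytes that lose this link flatten and leak protein. Valproic acid is a branched fatty acid used against epilepsy that inhibits class I histone deacetylases, enzymes that remove acetyl groups from histones and are known to repress transcription. Protein that passes the filter is taken up by the proximal tubule, whose cells are known to switch on injury and inflammatory genes when overloaded. The question here was which genes remained away from control in the treated mice.

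The arrays fell into 2 sets that correlated more closely within (r between 0.990 and 0.995 across genes) than across (0.966 to 0.979). The first set held control 1 and Tln1 VPA 1 and 2, beside Tln1 vehicle 1 and 2. The second held control 2, Tln1 VPA 3 and Tln1 vehicle 3. Of the values of an array, 18.2% to 26.2% also occurred, to the last digit and at any probe set, on another array of the same set. On an array of the other set 4.86% to 6.03% did. Each difference below is Tln1 VPA minus control in log2 units, from a limma fit with the array set as a term, given with its standard error (SE). Levels are compared with the control array of the same set. The sets also differed in a Y-linked gene: Eif2s3y was at 3.80 on control 1 against 5.43 and 6.51 on Tln1 VPA 1 and 2, and at 2.83 on control 2 against 2.69 on Tln1 VPA 3. The first set thus compares arrays that differ in Y-linked expression and the second does not, which is why values are given for both.

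No gene passed at an adjusted p below 0.05: 0 of 22180 genes were called higher (0%) and 0 lower (0%) by limma. The smallest adjusted p was 0.0971 and was shared by 9 genes. At an unadjusted p below 0.05, 900 genes had higher values (4.06%) and 900 lower values (4.06%), and centring each array on its median turned these counts into 721 and 1148. All 3 treated arrays lay above the control array of their own set for 3423 genes (15.4%) and below it for 3573 (16.1%). Within the first set both treated arrays lay above control 1 for 32.1% of genes and below it for 34.3%. Within the second set Tln1 VPA 3 lay above control 2 for 44.3% and below it for 43.7%. These shares are the background for the counts of list members that follow. Tln1 vehicle shares the control arrays with Tln1 VPA, so its values are set beside those of the treated arrays and are not independent of them. Against control it had 667 genes with higher values (3.01%) and 953 with lower values (4.30%) at an unadjusted p below 0.05. All 3 vehicle arrays lay above their own control for 14.2% of genes and below it for 16.3%. In whole glomeruli, fewer cells of a type and less RNA per cell cannot be told apart.

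Tln1 was at 8.97 on control 1 and at 8.76 and 8.88 on Tln1 VPA 1 and 2, and at 8.64 on control 2 and 8.59 on Tln1 VPA 3 (levels are log2 values made by robust multi-array averaging, RMA). The difference was -0.11 (SE 0.08) on the log2 scale, with adjusted p = 0.756. It is not known whether the probe set lies in the deleted part of the gene, and other glomerular cells express talin 1, so this value checks no label. Tln2, which encodes the second talin, was at 7.98 on control 1 against 7.12 and 7.53, and at 8.15 on control 2 against 7.75. Its difference was -0.55 (SE 0.13, adjusted p = 0.351), and in Tln1 vehicle -0.41. Hdac1, a class I deacetylase that valproic acid inhibits, lay above its own control on every treated array, at 8.73 and 8.67 against 8.32 and at 8.79 against 8.51. The difference of Hdac1 was 0.35 (SE 0.08, adjusted p = 0.333), beside 0.30 in Tln1 vehicle. For Hdac2 it was 0.06 (SE 0.10, adjusted p = 0.912), and its sign differed between the processing alternatives. Of 11 histone deacetylase genes, 3 lay above their own control on all treated arrays (background 15.4%) and 0 below (16.1%). Their median difference was 0.02.

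Genes of DNA replication and mitosis stood above control in both array sets. Of 28 measured, 25 lay above their own control on all 3 treated arrays, against a background of 15.4%, and 0 lay below on all 3. In the first set 26 were above control 1 on both arrays (background 32.1%), and in the second 26 were above control 2 (44.3%). The median difference was 0.56, against -0.00 over all genes. At an unadjusted p below 0.05, 16 members had higher values and 0 lower, beside 4.06% of all genes in each direction. Tln1 vehicle had a median of 0.10 for the same genes, with 6 members above their own control on every vehicle array (background 14.2%). Without any single array the treated median stayed between 0.42 and 0.65.

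Mki67, which encodes the Ki-67 antigen of cycling cells, was at 5.37 on control 1 against 6.95 and 6.72 on the treated arrays, and at 5.35 on control 2 against 6.75. All 3 treated arrays lay above both controls, and the 3 vehicle arrays, at 6.14, 5.59 and 6.46, lay between. The difference of Mki67 was 1.48 (SE 0.22, adjusted p = 0.232) in Tln1 VPA and 0.73 in Tln1 vehicle. Ccna2, the cyclin of S phase and early mitosis, was at 4.88 on control 1 against 5.83 and 5.91, and at 4.36 on control 2 against 5.20. Its vehicle arrays, at 5.01, 4.88 and 4.56, lay closer to their controls. Ccna2 differed by 0.94 (SE 0.10, adjusted p = 0.0971) against 0.11 in Tln1 vehicle. Ccnb2, a mitotic cyclin, differed by 1.11 (SE 0.19, adjusted p = 0.241). Top2a, the topoisomerase that untangles replicated chromosomes, was named after its values were seen. It was at 3.60 on control 1 against 5.62 and 5.03, and at 4.34 on control 2 against 4.96. Its difference was 1.25 (SE 0.28), but 0.79 without control 1. The one member with a negative difference was Tyms, thymidylate synthase, at -0.22. Trim59, a ubiquitin ligase, and Ctps, which makes CTP for nucleic acid synthesis, were not on the list. Their differences were 0.89 (SE 0.09) and 0.59 (SE 0.08), at adjusted p = 0.0971 and 0.19.

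Many promoters of mitotic genes are known to hold CCAAT boxes near a cell cycle homology region, for which TTTGAA is a common form. The promoters of Mki67 and Ccnb2 are shown as the list members of smallest p that have an entry in the promoter table. They are the 250 bases before the RefSeq start (GRCm38.p6), written on the gene's strand, at chr7:135716380-135716629 for Mki67 and chr9:70421555-70421804 for Ccnb2, both on the minus strand. Capitals mark CCAAT or its reverse complement ATTGG, and TTTGAA or its reverse complement TTCAAA.
Mki67: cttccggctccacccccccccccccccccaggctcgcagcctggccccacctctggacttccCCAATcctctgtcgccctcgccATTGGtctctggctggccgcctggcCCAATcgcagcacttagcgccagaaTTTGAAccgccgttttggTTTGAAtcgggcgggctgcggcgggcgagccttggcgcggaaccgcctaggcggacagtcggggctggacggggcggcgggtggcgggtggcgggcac
Ccnb2: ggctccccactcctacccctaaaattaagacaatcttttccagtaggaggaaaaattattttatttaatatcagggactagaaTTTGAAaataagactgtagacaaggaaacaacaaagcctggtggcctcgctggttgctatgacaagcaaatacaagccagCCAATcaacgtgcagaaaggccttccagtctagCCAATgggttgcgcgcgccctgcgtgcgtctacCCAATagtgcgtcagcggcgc
The Mki67 window holds 3 CCAAT and 2 TTTGAA matches, and the Ccnb2 window 3 and 1. In the Mki67 window the TTTGAA matches follow the CCAAT matches. In the Ccnb2 window the TTTGAA match precedes all CCAAT matches and is not close to any of them. Among the 24 list members with an entry in the promoter table, 19 held CCAAT (79.2%) and 8 held TTTGAA (33.3%), on either strand. Over 16990 measured genes with an entry these shares were 38.7% and 16.1%, and over all 32851 windows 33.8% and 16.0%. No CCAAT match overlaps a TTTGAA match in the windows shown, and a match describes letters only.

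Kidney injury genes were mostly above control in both sets. Of 23 measured, 14 lay above their own control on all treated arrays (background 15.4%) and 0 below. In the first set 16 were above control 1 on both arrays (background 32.1%), and in the second 20 were above control 2 (44.3%). At an unadjusted p below 0.05, 13 had higher values and 0 lower, beside 4.06% of all genes in each direction. The median difference was 0.48 in Tln1 VPA and 0.07 in Tln1 vehicle, but 0.25 in Tln1 VPA without control 2. Lcn2, which encodes the secreted injury marker lipocalin 2, was at 6.42 on control 1 against 9.07 and 8.76, and at 6.90 on control 2 against 9.27. Its vehicle arrays were at 8.19, 6.92 and 8.49, all below each treated array. The difference of Lcn2 was 2.47 (SE 0.35, adjusted p = 0.208), beside 1.31 in Tln1 vehicle.

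Havcr1, the tubular injury marker KIM-1, was at 3.46 on control 1 against 6.53 and 6.21, and at 3.07 on control 2 against 3.99. The distance was therefore much larger in the first set, and the difference of 2.06 had an SE of 0.49 (adjusted p = 0.348) and was 1.24 without control 1. Clu, the secreted chaperone clusterin, which is also on the list of genes known to respond to deacetylase inhibitors, differed by 1.04 (SE 0.28), and S100a6, a calcium-binding protein of dividing and injured cells, by 1.07 (SE 0.25). Nupr1, a stress-induced nuclear protein, was not on the list. It was at 6.28 on control 1 against 7.51 and 7.69, and at 8.11 on control 2 against 9.32. Its difference was 1.24 (SE 0.17, adjusted p = 0.208), with 0.77 in Tln1 vehicle. Cdkn1a, the p21 cell cycle inhibitor, is a list member named after its values were seen and had a difference of -0.10 (SE 0.30) whose sign differed between the sets.

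**Figure D1:**
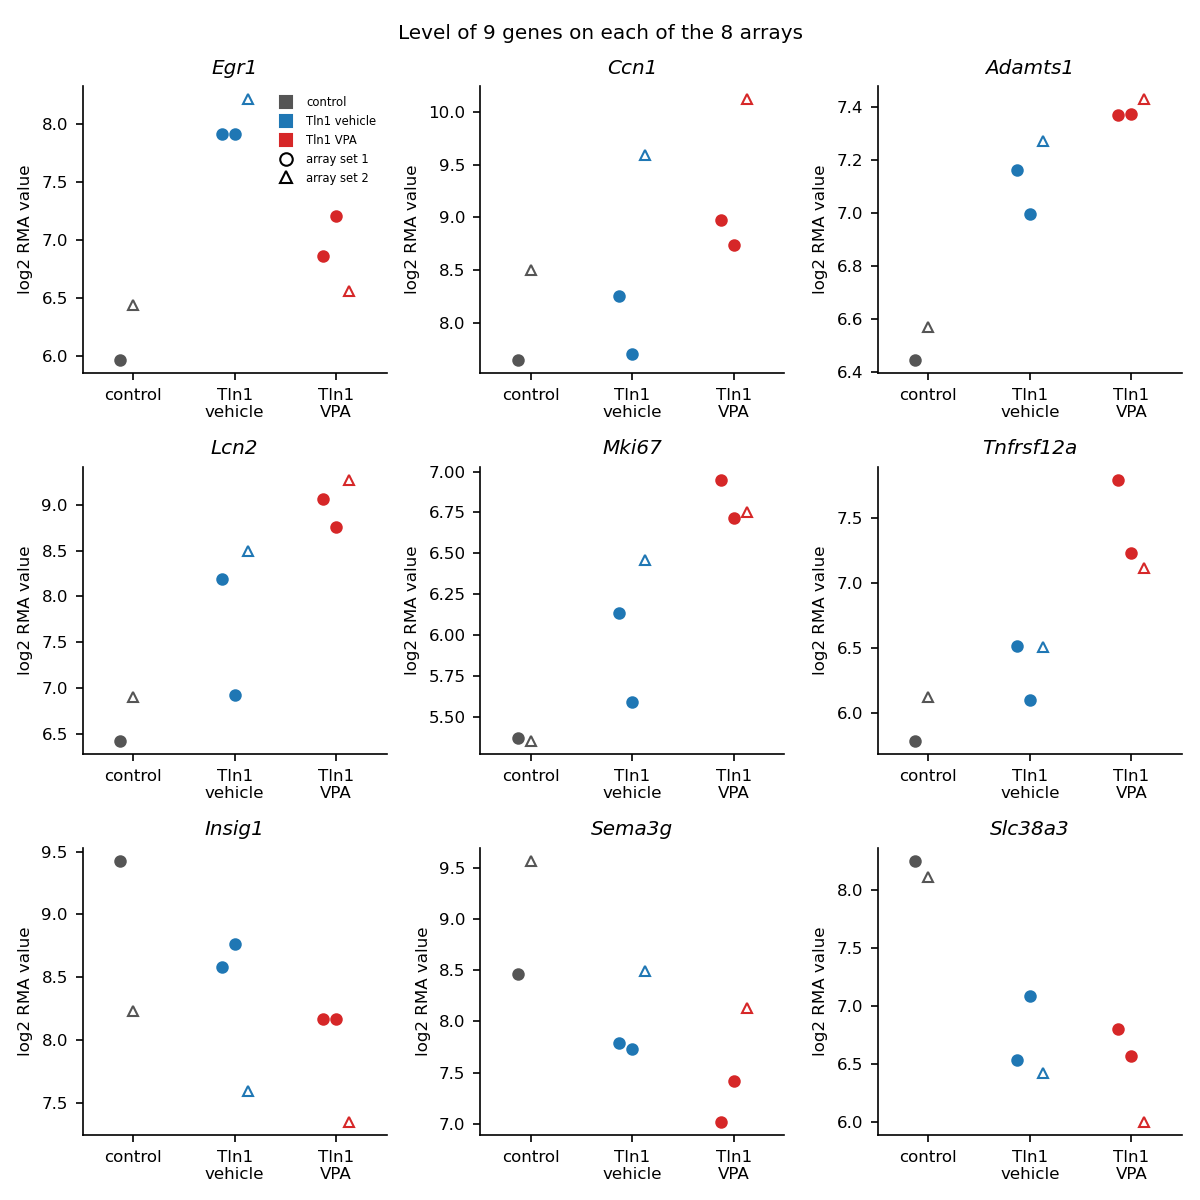
Level of 9 genes as log2 RMA values on each of the 8 arrays, by group (grey control, blue Tln1 vehicle, red Tln1 VPA), with filled circles for the first array set and open triangles for the second. For Lcn2, Mki67 and Tnfrsf12a each Tln1 VPA array lies above both controls, and for Egr1 the Tln1 vehicle arrays lie highest, at 7.91 to 8.21.

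Genes of NF-kB signalling, the pathway that turns on inflammatory genes, were above control more often than the background. Of 25 measured, 14 lay above their own control on all treated arrays (background 15.4%) and 1 below (16.1%). The median difference was 0.37 (0.12 in Tln1 vehicle). Tnfrsf12a, the receptor of the cytokine TWEAK, was at 5.79 on control 1 against 7.79 and 7.23, and at 6.12 on control 2 against 7.12. Its vehicle arrays, at 6.52, 6.10 and 6.51, lay below every treated array. The difference of Tnfrsf12a was 1.43 (SE 0.24, adjusted p = 0.241) in Tln1 VPA and 0.42 in Tln1 vehicle. Bcl3, a nuclear partner of NF-kB, differed by 0.89 (SE 0.17), and Birc3, an inhibitor of apoptosis that NF-kB induces, by 0.43 (SE 0.09). Tnfsf15, a TNF family cytokine of endothelial cells, was not on the list. It was at 5.35 on control 1 against 6.52 and 6.44, and at 6.12 on control 2 against 7.10. Its difference was 1.09 (SE 0.13, adjusted p = 0.175), beside 0.88 in Tln1 vehicle. Without control 2 the median of the list was 0.15.

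Of 20 chemokine genes, 8 lay above their own control on all treated arrays (background 15.4%) and 2 below (16.1%), with a median of 0.19. Ccl20, which draws cells that carry CCR6, had a low level throughout, at 3.85 on control 1 against 4.57 and 4.27, and at 3.95 on control 2 against 4.28. Cxcl10, an interferon-induced chemokine, differed by 0.99 (SE 0.29) and was at 6.08 to 6.64 on the treated arrays against 5.61 and 5.37 on the controls. Its difference was 0.55 without control 2 and 1.51 without control 1. Ccl5 was at 5.80 and 5.62 against 5.20 in the first set, and at 7.20 against 5.39 in the second. The chemokine median was 0.07 without control 2.

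Immediate early genes, which cells transcribe within minutes of a stimulus, differed among themselves. Egr1, a zinc finger factor of this class, was at 5.96 on control 1 against 6.86 and 7.20, and at 6.44 on control 2 against 6.56. The vehicle arrays were all above these, at 7.91, 7.92 and 8.21. The difference of Egr1 was 0.68 (SE 0.22, adjusted p = 0.518) in Tln1 VPA and 1.82 in Tln1 vehicle. In Tln1 VPA it was 0.38 without control 1 and 0.12 in the second set alone. Ccn1, a matricellular protein and a known target of the mechanically regulated factors YAP and SRF, lay further from control in the treated arrays. It was at 7.65 on control 1 against 8.97 and 8.73, and at 8.50 on control 2 against 10.12, with vehicle arrays at 8.26, 7.71 and 9.59. The difference of Ccn1 was 1.42 (SE 0.22, adjusted p = 0.236), beside 0.66 in Tln1 vehicle. Ccn2, connective tissue growth factor, differed by 1.01 (SE 0.22) and 0.79 in these groups (0.45 in Tln1 VPA with the mean of its probe sets), and Ier3, a survival gene, by 0.96 (SE 0.16) and 0.50. Over the 29 measured genes the median was 0.25 in Tln1 VPA and 0.19 in Tln1 vehicle. On all treated arrays 13 lay above their own control (background 15.4%) and 2 below (16.1%). On all vehicle arrays 16 lay above (background 14.2%) and 1 below (16.3%). The treated median was 0.50 without Tln1 VPA 3.

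Several genes outside the lists were among those with the smallest p and higher values. Fjx1, a secreted protein of the four-jointed family linked to planar polarity and Hippo signalling, was at 5.50 on control 1 against 6.57 and 6.42, and at 4.65 on control 2 against 5.81. The difference of Fjx1 was 1.05 (SE 0.09, adjusted p = 0.0971), and 0.52 in Tln1 vehicle. Adamts1, a protease that cuts versican and aggrecan, was at 6.45 on control 1 against 7.37 and 7.37, and at 6.57 on control 2 against 7.43. Its difference was 0.90 (SE 0.08, adjusted p = 0.0971), and its vehicle arrays lay between, at 7.16, 7.00 and 7.27. Itga2, the collagen-binding integrin alpha 2 chain, was at 4.27 on control 1 against 5.39 and 5.69, and at 5.45 on control 2 against 7.43. Its difference was 1.55 (SE 0.21, adjusted p = 0.208), beside 0.95 in Tln1 vehicle. Plod2, which hydroxylates collagen lysines, differed by 0.96 (SE 0.13), and Adm, the vasodilator peptide adrenomedullin, by 0.95 (SE 0.12). Their values in Tln1 vehicle were 0.81 and 0.75. Lgals1, the lectin galectin 1, differed by 0.51 (SE 0.07) in Tln1 VPA against -0.08 in Tln1 vehicle. Mir3093, a miRNA gene whose level stayed below the median gene, shared the smallest adjusted p and was named after its values were seen. It was at 3.62 on control 1 against 4.38 and 4.43, and at 3.58 on control 2 against 4.36.

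Cholesterol synthesis genes lay mostly below control. All 18 measured had negative differences, 14 lay below their own control on all 3 treated arrays (background 16.1%) and 0 above. In each set 16 were below the control array, beside backgrounds of 34.3% and 43.7%. The median difference was -0.33 in Tln1 VPA and -0.31 in Tln1 vehicle, where 14 members also lay below their own control on all arrays (background 16.3%). At an unadjusted p below 0.05, 9 members had lower values in Tln1 VPA (4.06% of all genes) and 9 in Tln1 vehicle (4.30%). Insig1, which holds the SREBP transcription factors back when sterols are plentiful and is itself their target, was at 9.43 on control 1 against 8.16 and 8.17, and at 8.23 on control 2 against 7.35. Its vehicle arrays were at 8.58, 8.77 and 7.59, each between its own control and the treated arrays. The difference of Insig1 was -1.11 (SE 0.11, adjusted p = 0.0971) in Tln1 VPA and -0.68 in Tln1 vehicle. Ebp, the sterol isomerase, was at 9.17 on control 1 against 8.45 and 8.38, and at 8.42 on control 2 against 7.82. Its difference was -0.71 (SE 0.10, adjusted p = 0.208). Msmo1, the sterol methyl oxidase, differed by -0.46 (SE 0.11). Cyp51, which demethylates lanosterol and was named after its values were seen, had a difference of -0.94 (SE 0.48), but Tln1 VPA 3 was above control 2, at 7.20 against 7.02.

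The promoters of Insig1 and Ebp are shown as the members of this group with the smallest p. SREBP is known to act with the CCAAT-binding factor NF-Y. The windows are chr5:28071162-28071411 on the plus strand for Insig1 and chrX:8193513-8193762 on the minus strand for Ebp (RefSeq, GRCm38.p6). Capitals again mark CCAAT or ATTGG.
Insig1: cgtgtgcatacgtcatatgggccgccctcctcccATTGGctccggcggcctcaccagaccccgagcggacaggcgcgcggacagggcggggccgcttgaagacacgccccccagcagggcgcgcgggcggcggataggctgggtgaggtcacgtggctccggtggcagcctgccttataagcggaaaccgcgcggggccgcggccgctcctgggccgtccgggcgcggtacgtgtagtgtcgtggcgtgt
Ebp: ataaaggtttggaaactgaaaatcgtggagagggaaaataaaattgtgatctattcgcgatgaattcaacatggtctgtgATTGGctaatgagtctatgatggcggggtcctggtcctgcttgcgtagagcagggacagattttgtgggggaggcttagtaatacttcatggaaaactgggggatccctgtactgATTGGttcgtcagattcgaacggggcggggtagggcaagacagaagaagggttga
Insig1 has 1 match and Ebp 2. All 14 list members with an entry held CCAAT, against 38.7% of measured genes, and 1 of them held TTTGAA (7.14%).

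**Figure D2:**
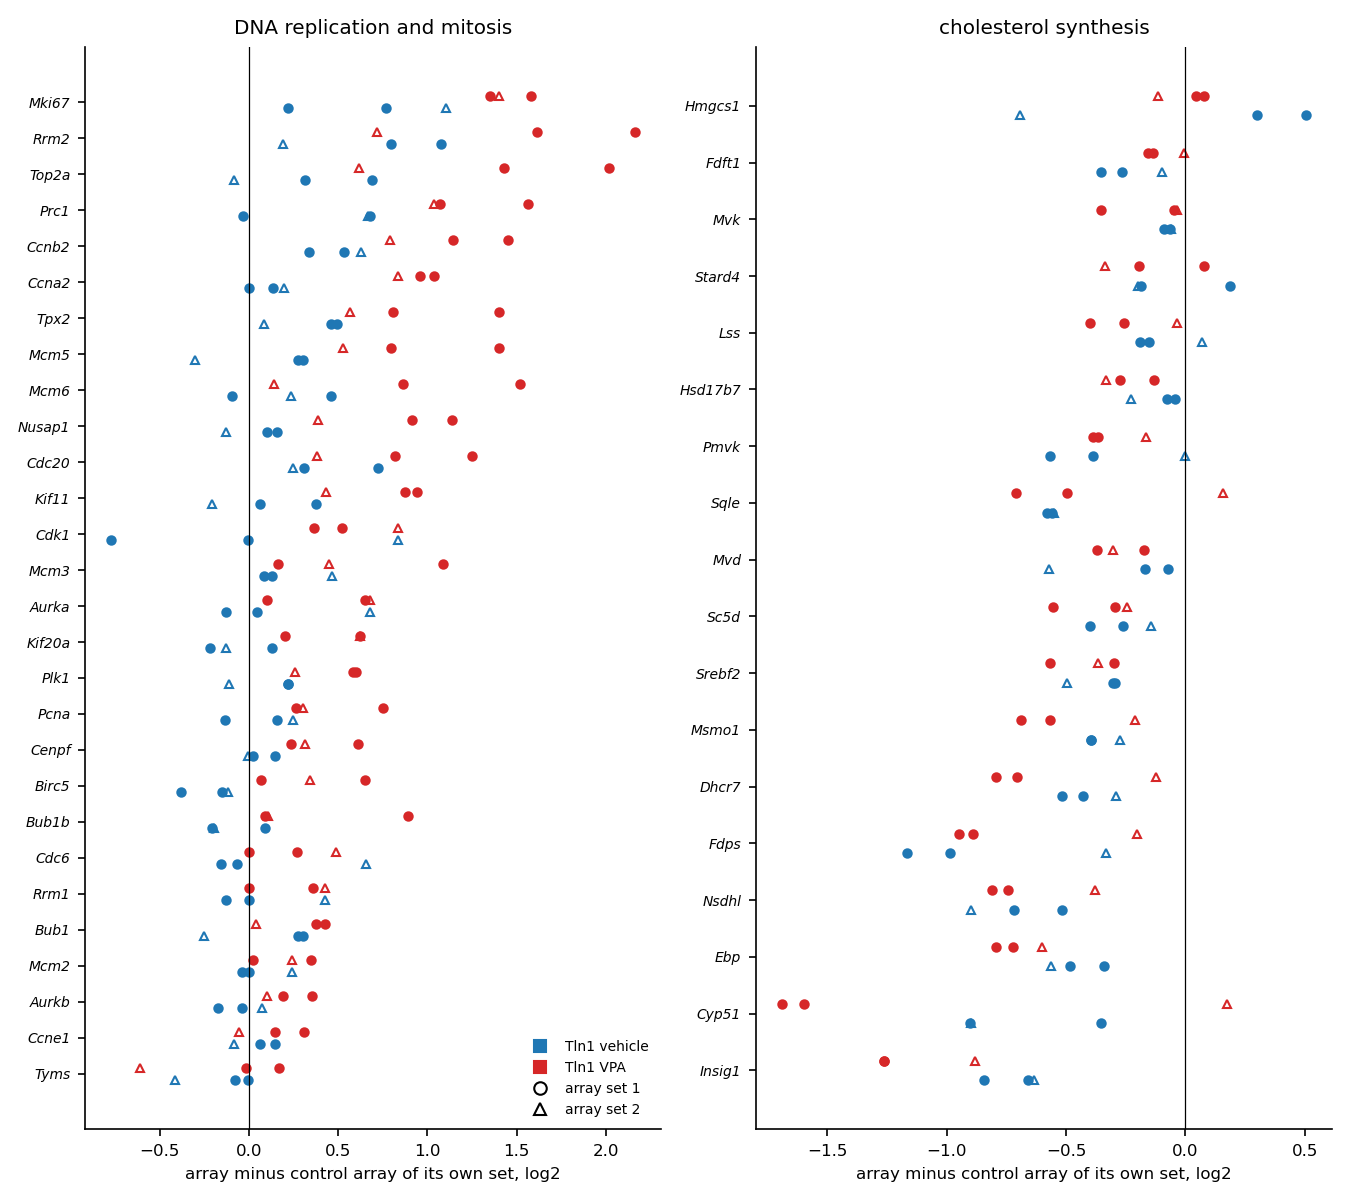
Differences of each Tln1 array from the control array of its own set (log2), 1 line of points per gene of DNA replication and mitosis (left) and cholesterol synthesis (right), blue for Tln1 vehicle and red for Tln1 VPA, with filled circles for the first set and open triangles for the second. For 25 of 28 genes on the left all red points lie to the right of 0, and for 14 of 18 on the right all lie to the left.

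Fatty acid synthesis genes had a like median, at -0.34 in Tln1 VPA and -0.21 in Tln1 vehicle. Of 13 measured, 9 lay below their own control on all treated arrays (background 16.1%) and 1 above (15.4%). Srebf1, which encodes the SREBP that drives lipogenesis, was at 7.32 on control 1 against 6.64 and 6.79, and at 6.70 on control 2 against 6.16. The difference of Srebf1 was -0.56 (SE 0.09, adjusted p = 0.236). Fads1, the delta-5 desaturase, differed by -0.70 (SE 0.18, -0.39 without control 1), and Acly, which makes cytosolic acetyl-CoA from citrate, by -0.38 (SE 0.09). Scd1, the stearoyl-CoA desaturase, was named after its values were seen. Its difference was -1.74 (SE 0.53) in Tln1 VPA and -2.31 in Tln1 vehicle. Fatty acid oxidation and PPARA target genes had a median of -0.01 over 23 members. That median was 0.18 without control 2, so it too has no settled sign. On all treated arrays 6 members lay above their own control (background 15.4%) and 4 below (16.1%). Among them Pdk4, which spares glucose by inhibiting pyruvate dehydrogenase, differed by 0.96 (SE 0.30), and Plin2, the coat protein of lipid droplets, by 0.38 (SE 0.10).

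Markers of the proximal tubule, which are in these glomerular isolates at high levels, lay below control in part. Of 24 measured, 12 were below their own control on all treated arrays (background 16.1%) and 1 above (15.4%). The median difference was -0.33 (-0.27 in Tln1 vehicle). The mean level over the list was 11.3 on control 1 against 11.2 and 11.4, and 10.6 on control 2 against 10.2. The median difference ran from -0.51 without control 1 to -0.18 without control 2. Among the members with the smallest p were enzymes of glucose production. Pck1, the entry enzyme of gluconeogenesis, was at 12.89 on control 1 against 12.45 and 12.27, and at 12.34 on control 2 against 10.59. Fbp1, fructose bisphosphatase, differed by -0.83 (SE 0.18), and G6pc, glucose 6-phosphatase, which was not on the list, by -0.96 (SE 0.14, adjusted p = 0.232). Aqp1, the water channel of this segment, differed by -0.47 (SE 0.09).

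Slc38a3, a glutamine transporter used for renal ammonia production, had the largest difference among the genes that shared the smallest adjusted p. It was at 8.25 on control 1 against 6.80 and 6.57, and at 8.11 on control 2 against 6.0. The vehicle arrays, at 6.53, 7.08 and 6.42, were also below both controls. Its difference was -1.79 (SE 0.19, adjusted p = 0.0971) in Tln1 VPA and -1.57 in Tln1 vehicle, and -1.91 with Y-linked expression as a covariate. Slc16a4, a monocarboxylate transporter family member, was at 10.10 on control 1 against 8.97 and 8.90, and at 9.64 on control 2 against 7.84. The difference of Slc16a4 was -1.46 (SE 0.18, adjusted p = 0.18). Cacna2d2, a calcium channel subunit, differed by -1.34 (SE 0.19), Dmgdh, a mitochondrial enzyme of choline breakdown, by -1.04 (SE 0.14), and Gstk1, a glutathione transferase, by -0.58 (SE 0.07). Their values in Tln1 vehicle were -1.18, -0.70 and -0.55. The transcripts D630039A03Rik and D630024D03Rik differed by -0.96 (SE 0.10) and -1.02 (SE 0.16). Zfp185, which encodes an actin-associated LIM protein, was at 6.41 on all 3 treated arrays against 6.85 and 6.95 on the controls.

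Podocyte markers did not show 1 direction in both sets. Of 32 measured, 11 had positive and 21 negative differences, from -1.34 to 0.32. On all treated arrays 7 lay below their own control (background 16.1%) and 3 above (15.4%). The median was -0.17 (0.00 in Tln1 vehicle). In the first set 7 were below control 1 on both arrays and the median was 0.02. In the second, 27 were below control 2 and the median was -0.48, beside backgrounds of 34.3% and 43.7%. With 1 array left out in turn, the median ran from -0.45 without control 1 to 0.01 without control 2. The mean level of the list was 7.68 on control 1 against 7.59 and 7.87, and 8.74 on control 2 against 8.25. Sema3g, a semaphorin that podocytes secrete, had the smallest p of the list. It was at 8.46 on control 1 against 7.02 and 7.42, and at 9.57 on control 2 against 8.13, with vehicle arrays between at 7.79, 7.73 and 8.49. The difference of Sema3g was -1.34 (SE 0.14, adjusted p = 0.0971), and -0.86 in Tln1 vehicle. Npnt, the integrin ligand nephronectin, differed by -0.28 (SE 0.08), and Lmx1b, a transcription factor of the podocyte, by -0.32 (SE 0.10). Without control 2 Lmx1b was at -0.18 and without control 1 at -0.48. Nphs1, the slit diaphragm protein nephrin, and Synpo, the actin-binding protein synaptopodin, were named after their values were seen. Nphs1 was at 7.59 on control 1 against 7.21 and 8.00, and Synpo at 6.63 against 6.11 and 6.66, so for both genes 1 treated array of the first set lay below control 1 and 1 above. In the second set both lay below control: Nphs1 was at 9.76 on control 2 against 8.71 on Tln1 VPA 3, and Synpo at 7.26 against 6.58.

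Of the other glomerular cells, the parietal epithelium lines the capsule. Of its 15 markers, 8 lay above their own control on all treated arrays (background 15.4%) and 0 below (16.1%). Their median was 0.29 (0.07 in Tln1 vehicle). Krt8, a keratin of simple epithelia, was at 7.68 on control 1 against 8.24 and 8.08, and at 7.14 on control 2 against 7.62. Its difference was 0.49 (SE 0.08, adjusted p = 0.239). Cd24a differed by 0.61 (SE 0.16) and Krt19 by 0.39 (SE 0.12). These genes are also known in injured tubule cells. Mesangial and smooth muscle markers had a median of -0.01 over 18 members, against 0.30 in Tln1 vehicle. Their differences were positive for 8 and negative for 10, from -0.22 to 1.03. On all treated arrays 6 lay above their own control (background 15.4%) and 2 below (16.1%). The treated median was 0.24 without control 1 and 0.19 in the second set alone, so it has no settled sign. Des, the intermediate filament desmin of mesangial cells, which injured podocytes also make, was at 5.13 on control 1 against 5.84 and 6.34, and at 5.26 on control 2 against 6.46. The difference of Des was 1.03 (SE 0.26, adjusted p = 0.361) in Tln1 VPA and 1.08 in Tln1 vehicle. Pdgfrb, the PDGF receptor of mesangial cells, differed by 0.35 (SE 0.17) and 0.72 in these groups, and by 0.19 in the treated group without Tln1 VPA 3. Endothelial markers had a median of -0.05 over 24 members. That median was -0.39 without control 2 and 0.39 without control 1, so it has no settled sign. Markers of the loop, distal tubule and collecting duct had 11 positive and 9 negative differences among 20 members. On all treated arrays 6 of them lay above their own control (background 15.4%) and 4 below (16.1%). Their median was 0.05, from -0.12 without control 2 to 0.27 without control 1. Those with the smallest p, Foxi1 and Atp6v1g3 of the acid-secreting cells of the collecting duct, differed by 0.66 (SE 0.18) and 0.41 (SE 0.14).

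**Figure D3:**
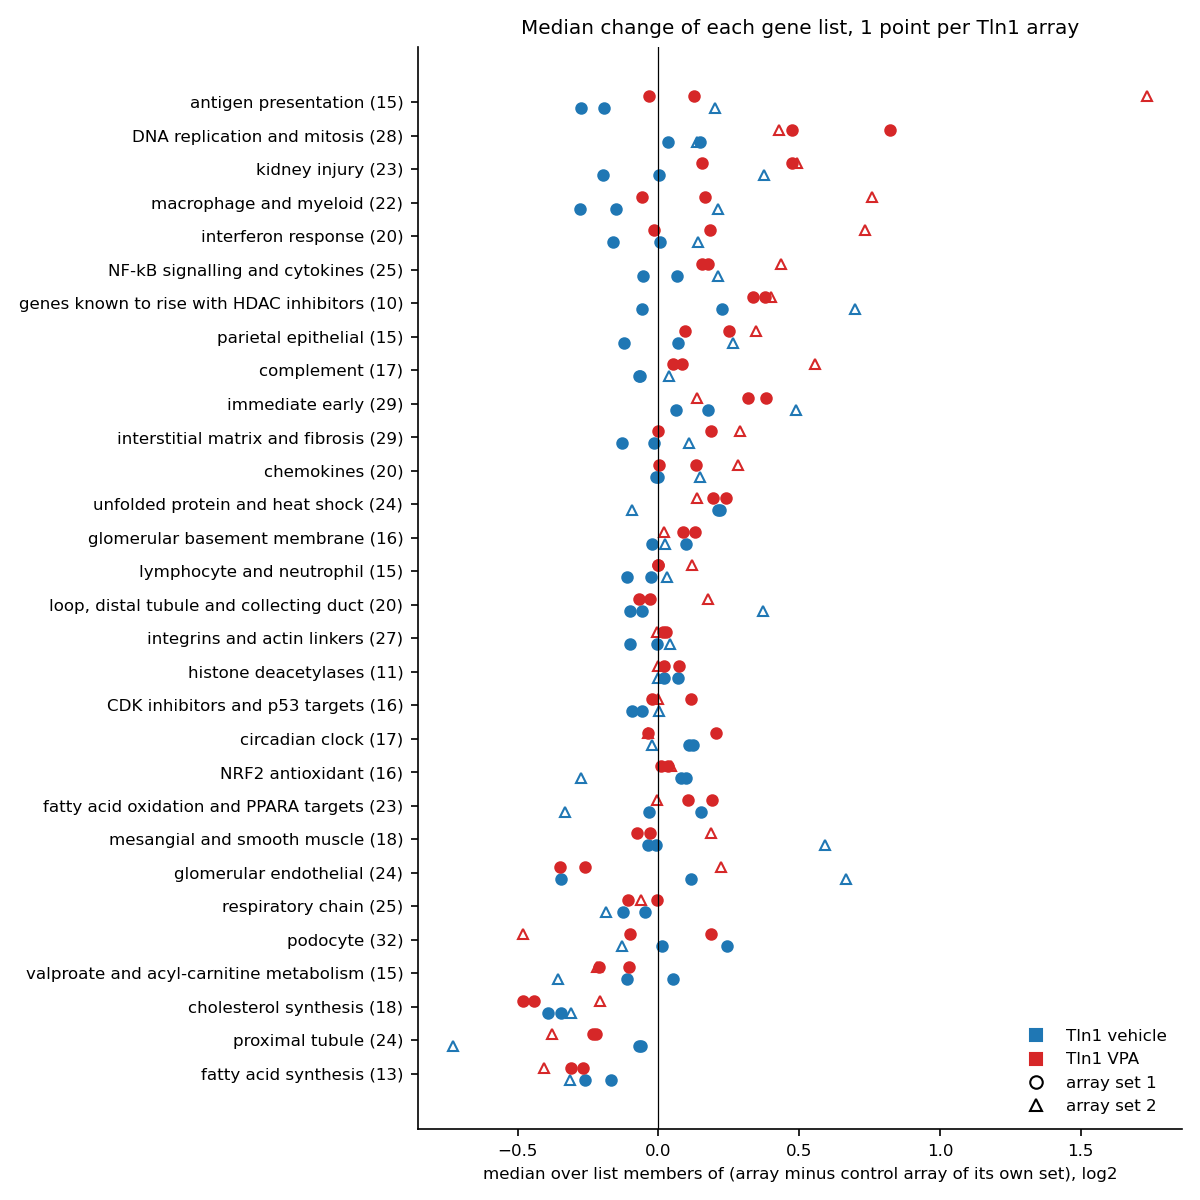
Median over the members of each gene list of the difference between a Tln1 array and the control array of its own set (log2), 1 point per array, blue for Tln1 vehicle and red for Tln1 VPA, with filled circles for the first set and open triangles for the second and the number of measured members in brackets. DNA replication and mitosis, with a median of 0.56 in the fit, has each red point to the right of all 3 blue ones, and antigen presentation has 1 red triangle far from its circles.

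Immune genes were higher mainly on Tln1 VPA 3. Antigen presentation genes had the largest median of these lists, 0.68 over 15 members against -0.01 in Tln1 vehicle, but 0.04 in the first set and 1.74 on Tln1 VPA 3. Against their own controls 6 members were above on both first-set arrays and 14 were above on Tln1 VPA 3, beside backgrounds of 32.1% and 44.3%. Without that array the median was 0.21, and it was 0.21 without control 2 and 1.39 without control 1. H2-Ab1, an MHC class II chain of antigen-presenting cells, was at 8.30 on control 1 against 9.12 and 8.71, and at 8.67 on control 2 against 11.47. The difference of H2-Ab1 was 1.53 (SE 0.44, adjusted p = 0.432). Tapbp and Tap1, which load peptide on MHC class I, were at 9.79 and 8.51 on Tln1 VPA 3 against 8.48 and 6.39 on control 2. In the first set Tap1 was at 7.09 and 7.12 against 6.89.

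Macrophage markers had a median of 0.38 over 22 members, 0.05 in the first set and 0.76 on Tln1 VPA 3. Of these, 5 were above control 1 on both arrays and 20 above control 2, and the median was 0.16 without Tln1 VPA 3, 0.08 without control 2 and 0.67 without control 1. The mean level of the list was 4.82 on control 1 against 4.99 and 4.72, and 4.84 on control 2 against 5.64. Cd68, a lysosomal protein of macrophages, was at 5.66 on control 1 against 6.41 and 5.83, and at 5.54 on control 2 against 6.45. Ctss, the protease cathepsin S, was at 5.39 against 6.10 and 5.46, and at 6.17 against 8.66. Fcgr3, an IgG receptor, differed by 0.70 (SE 0.17). Of 20 interferon response genes, 8 were above control 1 on both arrays and 20 above control 2, and the median of 0.38 became 0.15 without Tln1 VPA 3 and 0.65 without control 1. Stat2, which carries the interferon signal to the nucleus, differed by 0.47 (SE 0.11), and Oasl2, an antiviral gene, by 0.67 (SE 0.24). Without control 2 the value of Oasl2 was 0.31, and without control 1 it was 1.10. The part of immune cell content in these values was not tested.

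**Figure D4:**
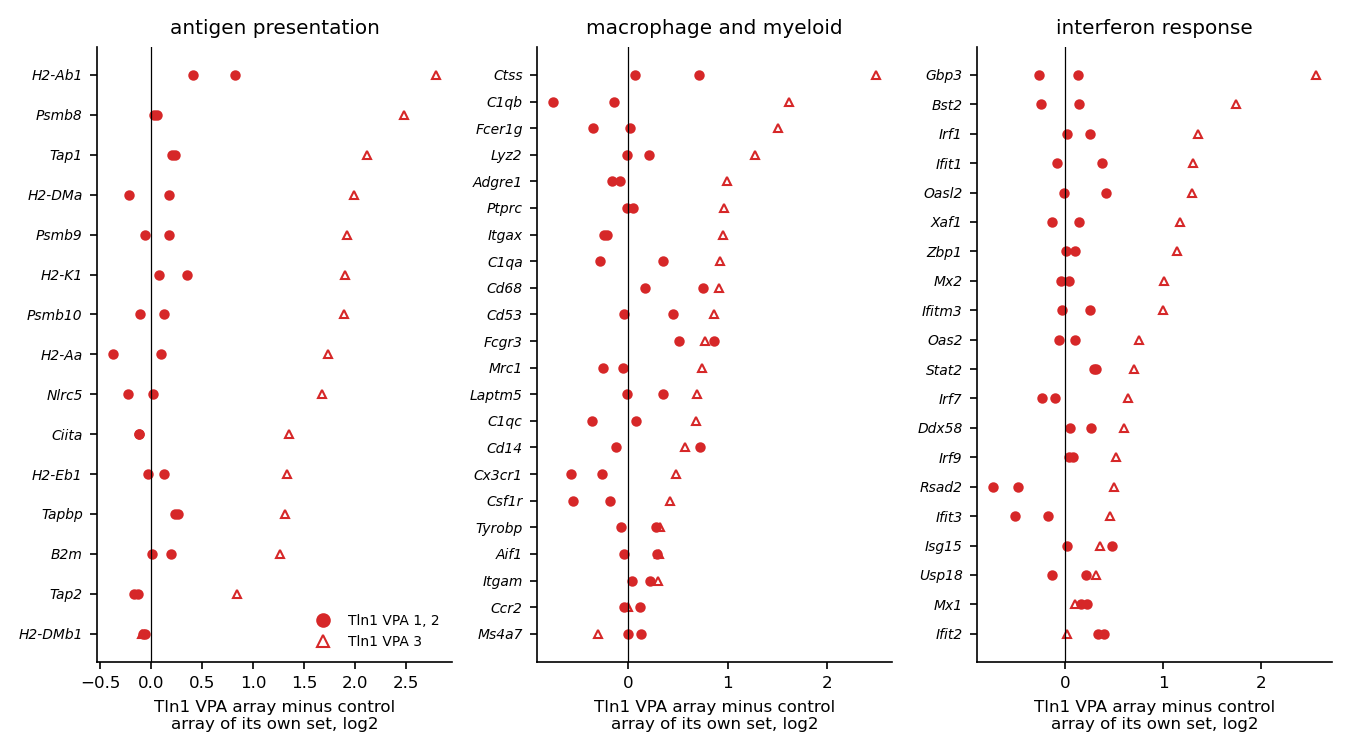
Differences of Tln1 VPA 1 and 2 (filled circles) and Tln1 VPA 3 (open triangles) from the control array of their own set (log2), 1 line per gene of antigen presentation, macrophage and interferon lists. The triangles lie above 0 for 14 of 15, 20 of 22 and 20 of 20 genes, while both circles do for 6, 5 and 8.

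Complement genes had a median of 0.27 over 17 members, 0.04 in the first set and 0.56 on Tln1 VPA 3, and it ran from 0.09 without control 2 to 0.49 without control 1. C4b, the fourth component, was at 5.57 on control 1 against 6.09 and 5.81, and at 4.55 on control 2 against 7.52. C1s1, a protease of the first component, had a low level and differed by 0.57 (SE 0.13), or 0.33 with the mean of its probe sets. Interstitial matrix and fibrosis genes had a median of 0.20 over 29 members, and 0.11 without control 2. On all treated arrays 11 members lay above their own control (background 15.4%) and 2 below (16.1%). Timp1, an inhibitor of matrix proteases, was at 3.49 on control 1 against 4.01 and 4.33, and at 3.74 on control 2 against 4.11. Tnc, the matrix protein tenascin C, differed by 0.41 (SE 0.11), and Tgfbi, a TGF-beta-induced matrix protein, by 0.91 (SE 0.26, 0.54 without control 2). Of the integrin and actin linker list, 7 of 27 members lay above their own control on all treated arrays (background 15.4%) and 7 below (16.1%). The median of this list was 0.03. Within it Actn1, an actin crosslinker, differed by 0.41 (SE 0.13), and Itgb5, an integrin beta chain, by -0.31 (SE 0.10).

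Of 10 measured genes known from other work to respond to deacetylase inhibitors, 5 lay above their own control on all treated arrays (background 15.4%). On all treated arrays 0 lay below (16.1%). The median was 0.30 in Tln1 VPA (0.53 without control 1) and 0.20 in Tln1 vehicle. Within the first and second set the medians were 0.37 and 0.40 in Tln1 VPA, and -0.01 and 0.70 in Tln1 vehicle. Differences in Tln1 VPA were positive for 8 members and negative for 2, among them Cdkn1a, at -0.10 as given above. Hspa1b, an inducible heat shock protein, was at 6.60 on control 1 against 7.61 and 7.28, and at 7.43 on control 2 against 8.85. The difference of Hspa1b was 1.08 (SE 0.15, adjusted p = 0.208) in Tln1 VPA and 1.17 in Tln1 vehicle, and its near-identical copy Hspa1a makes the value of either uncertain. Unfolded protein and heat shock genes had 15 of 24 members above their own control on all treated arrays (background 15.4%) and 1 below (16.1%). Their median of 0.17 ran from 0.02 without control 1 to 0.28 without control 2. Ddit3, the stress factor CHOP, differed by 0.59 (SE 0.11). Nfe2l2, the oxidant-responsive factor NRF2, is a member of the NRF2 list instead and differed by 0.37 (SE 0.10). Genes of valproate and acyl-carnitine metabolism had 9 of 15 members below their own control on all treated arrays (background 16.1%) and 2 above (15.4%). Their median was -0.23 (-0.10 without control 2). Ugt2b34, a glucuronidating enzyme, differed by -0.60 (SE 0.22), against -0.99 in Tln1 vehicle. Abat, which degrades GABA and is inhibited by valproic acid, differed by -0.47 (SE 0.14, -0.30 without control 2). Respiratory chain genes had a median of -0.09 over 25 members, with 10 below their own control on all treated arrays (background 16.1%) and 0 above. In Tln1 vehicle the median was -0.14, with 14 below (background 16.3%) and 0 above. The treated median was 0.00 without the array set term.

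Androgen-regulated kidney genes differed from control mainly in the first set, as Eif2s3y did. Their median was 1.28 over 10 members, with 1.98 for the first set and 0.05 for the second. Cyp4a12a, a fatty acid hydroxylase of male kidney, was at 4.79 on control 1 against 7.36 and 8.31, and at 4.59 on control 2 against 6.85, so above control in both sets. It is hard to tell from its copy Cyp4a12b, which differed by 1.32 (SE 0.20). The second set is 1 treated array against 1 control array, with Eif2s3y at 2.69 and 2.83. In it the median was 0.43 for mitosis, 0.49 for kidney injury and -0.21 for cholesterol synthesis. With Y-linked expression as a covariate over all arrays, the medians of these lists were 0.67, 0.59 and -0.36. The same covariate turned the sign of the medians for endothelial markers (0.26), mesangial markers (0.10) and histone deacetylases (-0.02). Whether sex accounts for any of these differences was not tested. The remaining lists had medians within 0.11 of 0 over all arrays: glomerular basement membrane at 0.11, lymphocyte and neutrophil at 0.10, CDK inhibitors and p53 targets at 0.01, NRF2 targets at -0.01 and circadian clock genes at -0.00. With 1 array left out, NRF2 targets reached -0.15 without control 1, clock genes ran from -0.09 to 0.11, and the lymphocyte and neutrophil median was -0.01 at its lowest. Of the erythroid list, 2 genes were measured, with a median of -0.01.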

How the data were processed

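Glomerular RNA was measured on Affymetrix arrays, per the labels' protocols. The deposited values are on a log2 scale, and RMA and limma are the tools in the submitters' processing notes. Which arrays the authors normalised together is not stated. Precision is limited by the number of arrays.

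Of 41345 probe sets, 23521 had 1 symbol, 1814 several and 16010 none in the platform annotation used here. Each of the 22180 genes is its probe set of highest mean level, with no filter on low values. All 8 arrays entered 1 limma fit (lmFit and eBayes, group and array set as terms, two-sided, limma 3.58.1 in R 4.3.3), with 4 residual degrees of freedom. Adjusted p is Benjamini-Hochberg over all genes, called below 0.05. The median residual SD was 0.123 with the set term and 0.214 without it. On simulated data for Tln1 VPA against control, run on 22180 genes, 92% of 100 genes shifted by 1 log2 unit and 97% of 100 shifted by 2 were called, beside 13 unshifted ones. The simulated noise was normal, independent between genes and arrays, and had the spread that eBayes had already moderated. No group difference other than these shifts was kept. These shares therefore check the code and do not tell how many such genes would be called in the deposited data.

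Members and lists were chosen with earlier results of these data known. The 33 lists hold 686 entries, of which 623 were measured. Lists are described by counts and medians, with no test. Named genes are Tln1, Egr1, Hdac1, Hdac2 and, in each direction, the 12 of smallest p whose treated arrays all lie on 1 side of their own control and whose higher group has a mean above the median gene (4.92). From each list, members among its 3 of smallest p are named. Promoters come from RefSeq (GRCm38.p6). Figures were drawn with matplotlib 3.10.9. Alternatives were a fit without the set term, each set alone, a covariate for Y-linked expression (Eif2s3y, Kdm5d and Uty averaged), the replicate number as a block, other scalings and probe set rules, and each array left out.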

Additional observations from a re-analysis of the deposited data

How the results depend on the processing

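Under 18 alternatives the counts of called genes were 0 in each direction except in these, whose genes were named after their values were seen. With Y-linked expression as a covariate 1 gene was called higher (Ccn1, 1.67, adjusted p = 0.0355) and 1 lower (Dnase1, -1.42, adjusted p = 0.0355). Leaving out 1 array gave 0 to 1 calls in each direction, with Lcn2 (2.43, adjusted p = 0.03) higher and Hpd (-2.13, adjusted p = 0.0357) lower without Tln1 vehicle 2. For Tln1 vehicle against control, leaving out 1 array gave 0 to 1 genes called lower, the 1 being without Tln1 vehicle 3. Over the alternatives the adjusted p of Ccn1 ran from 0.0355 to 1, of Dnase1 from 0.0355 to 1, of Lcn2 from 0.03 to 1 and of Hpd from 0.0357 to 1.

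The replicate numbers were not taken as pairs in the main fit. Control and Tln1 VPA share 2 numbers, whose deviations from the group means correlated at 0.593 and -0.496 across genes. Control 1 and Tln1 VPA 1 are both in the first array set, but control 2 and Tln1 VPA 2 are in different sets. These correlations therefore cannot decide whether the numbers pair the arrays. With the replicate number as a block in place of the array set, 1 gene was called higher (Ces1g, 4.06, adjusted p = 0.00964, 0.00964 to 1 over the alternatives) and 0 lower, and 4 were called higher in Tln1 vehicle against control. The block turned the sign of 9 list medians: proximal tubule (0.21), loop and distal tubule (-0.08), mesangial (0.08), erythroid (0.22), valproate metabolism (0.18), fatty acid oxidation (0.40), respiratory chain (0.16), NRF2 targets (0.20) and clock (0.24). It gave medians of -0.14 for cholesterol synthesis, -0.11 for fatty acid synthesis, -0.54 for podocyte, -0.26 for endothelial and 0.05 for macrophage markers, 0.27 for antigen presentation, 0.10 for immediate early genes and 0.07 for genes that respond to deacetylase inhibitors. It turned Tln1 to 0.0326, Abat to 0.0594, Hdac2 to -0.0145 and Tyms to 0.0268.

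The median for antigen presentation was 1.74 in the second set alone, and that for kidney injury 0.25 to 0.57 when 1 array was left out. Of 1832 values for 97 named genes, 18 turned sign, in 9 genes. In the second set alone these were Cdkn1a (0.40), Ces1g (-0.0023), Cyp51 (0.17), Eif2s3y (-0.14) and Hdac2 (-0.0131), and in the first set alone Nphs1 (0.0104) and Tyms (0.0739). With the Y-linked covariate they were Cdkn1a (0.23) and Hdac2 (-0.0165). When 1 array was left out, Cdkn1a ran from -0.52 to 0.39, Ces1g from -0.10 to 3.94, Eif2s3y from -0.44 to 2.32, Hdac2 from -0.0763 to 0.173 and Tyms from -0.51 to 0.0221, turning sign without control 1 or, for Tyms, control 2. Without the set term, 272 genes had higher and 142 lower values at an unadjusted p below 0.05. The cause of these differences was not tested.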
